A study of Mus musculus with 27 samples.

Results

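Semaphorins, plexins and neuropilins are families of ligands and receptors that guide growing axons and migrating cells. A gene belonged to the set where it was annotated as protein-coding and its symbol began with Sema and a digit or with Plxna, Plxnb, Plxnc or Plxnd and a digit, or was Nrp1 or Nrp2. This rule, which uses no measured value, gave 31 of the 55487 genes in the table: 20 semaphorins, 9 plexins and 2 neuropilins. Of the semaphorins, 7 are secreted (class 3), 12 are transmembrane (classes 4, 5 and 6) and 1, Sema7a, is anchored to the membrane by a lipid.

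Geo-seq, which couples laser capture of frozen sections with whole transcriptome amplification, was applied to the optic stalk of mouse embryos at embryonic day 14. A dorsal piece, a ventral piece and a piece rich in retinal ganglion cell (RGC) axons were captured. The 5 mutant embryos (Smarcc1-DCT-cKO) carried Baf155 loxP/loxP, Dct-Cre and the Z/EG reporter, and the 4 controls were littermates without Dct-Cre, so that the 6 groups hold 4 control or 5 mutant libraries each, 27 in all. Baf155 is another name of Smarcc1, a core protein of SWI/SNF, a complex that repositions nucleosomes. Dct-Cre acts in pigmented lineages, the retinal pigment epithelium (RPE) and the optic stalk among them. The study took the deletion to cover the whole stalk at this stage and found the transgene active in only part of the optic disc, which was not among the captured pieces. Control replicate 1 and mutant replicates 1, 2 and 3 belong to batch A of the labels, and the other libraries to batch B.

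Semaphorins are ligands that bind plexins, the receptors that pass the signal into the cell through a GTPase-activating domain. Most secreted class 3 semaphorins bind plexins of class A through neuropilins, which act as co-receptors and also bind VEGF family members. In the embryonic head the family is known for steering axons and neural crest cells and for patterning vessels, and several members are known guidance cues of RGC axons at the optic disc and along the optic nerve.

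The total count per library lay between 10.9 and 34.0 M counts, and 9225 to 16810 genes had at least 1 count. Levels are given as CPM, counts per M counts of the library, in the order of the replicate number. A count of 0 allows a level of up to 3 counts, which is 0.0883 to 0.275 CPM in these libraries, and a group whose libraries all hold at most 3 counts of a gene is called at the floor. Such floors cover counting error only, since PCR copies without molecular identifiers are not independent molecules. Smarcc1, counted over the whole gene, was lower in every mutant than in any control library of the ventral pieces (14.7 to 64.4 against 75.7 to 198 CPM) and of the axon pieces (1.86 to 44.9 against 50.1 to 242 CPM). In the dorsal pieces the genotypes overlapped, at 2.26 to 107 CPM in mutants and 75.9 to 289 CPM in controls. The axon marker Nefm, a neurofilament, lay between 767 and 1757 CPM in axon libraries and reached at most 212 CPM elsewhere. In each axon group, however, 4 of the 12 RGC axon markers, the neurofilament Nefh among them, were at the floor. They were not the same 4, since Pou4f1 had no count in axon controls but reached 5.92 CPM in axon mutants. The stalk marker Pax2 had at least 1 count in every library, from 0.0917 to 59.6 CPM.

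The dorsal genotypes also differed in marker sums of several cell types. The summed level of 11 mesenchyme markers (collagens and fibroblast genes) was 1147, 3559, 11581 and 1923 CPM in the dorsal controls and 108, 55.6, 108, 270.3 and 395 CPM in the dorsal mutants. It was 55.2 to 1331 CPM in ventral controls, 58.1 to 199 CPM in ventral mutants, 395 to 2638 CPM in axon controls and 629 to 2305 CPM in axon mutants. In the dorsal libraries 11 of 11 mesenchyme markers had a lower fitted level in mutants and 7 of them had an unadjusted edgeR p under 0.05. The sum of 10 pigment epithelium markers was 5263, 1702, 39.5 and 5704 CPM in dorsal controls and 12882, 6585, 14364, 4424 and 6885 CPM in dorsal mutants, with 1 of the 10 markers at the floor in each group. The sum of 9 stalk and astrocyte progenitor markers was 1250.0, 1556, 1218 and 1340.3 CPM in dorsal controls and 429, 494, 486, 552 and 793 CPM in dorsal mutants. The sum of 7 retinal progenitor markers was 391, 166, 165 and 346 CPM in dorsal controls and 425, 1069, 549, 642 and 495 CPM in dorsal mutants. The sum of 8 endothelial markers was 260.3 to 488 CPM in dorsal controls and 64.3 to 538 CPM in dorsal mutants. A lower fitted level in dorsal mutants was found for 8 of these 8 markers, and 0 had an unadjusted edgeR p under 0.05. The mesenchyme, stalk and retinal progenitor sums did not overlap between the dorsal genotypes, and the pigment and endothelial sums did. These pieces are mixtures, so fewer cells of a type and less RNA of a gene per cell cannot be told apart in any result given here.

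Across the 27 libraries, 339 of the 837 member values (40.5%) were 0. After removal of the 3 members that failed the count filter (more than 10 counts in at least 3 libraries), 35.2% of values were 0, against 31.7% over all 16330 genes that passed it. The filter removed Plxnb3, Sema3e and Sema3g. Members with a group mean of at least 1 CPM numbered 130 over the 6 groups, and in 58 of these 130 member-and-group pairs 1 library held 0 and another held over 10 CPM. A single library held over 50% of the summed CPM in 87 of the 130. Many members were thus seen in some embryos of a group and not in the others.

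**Figure D1:**
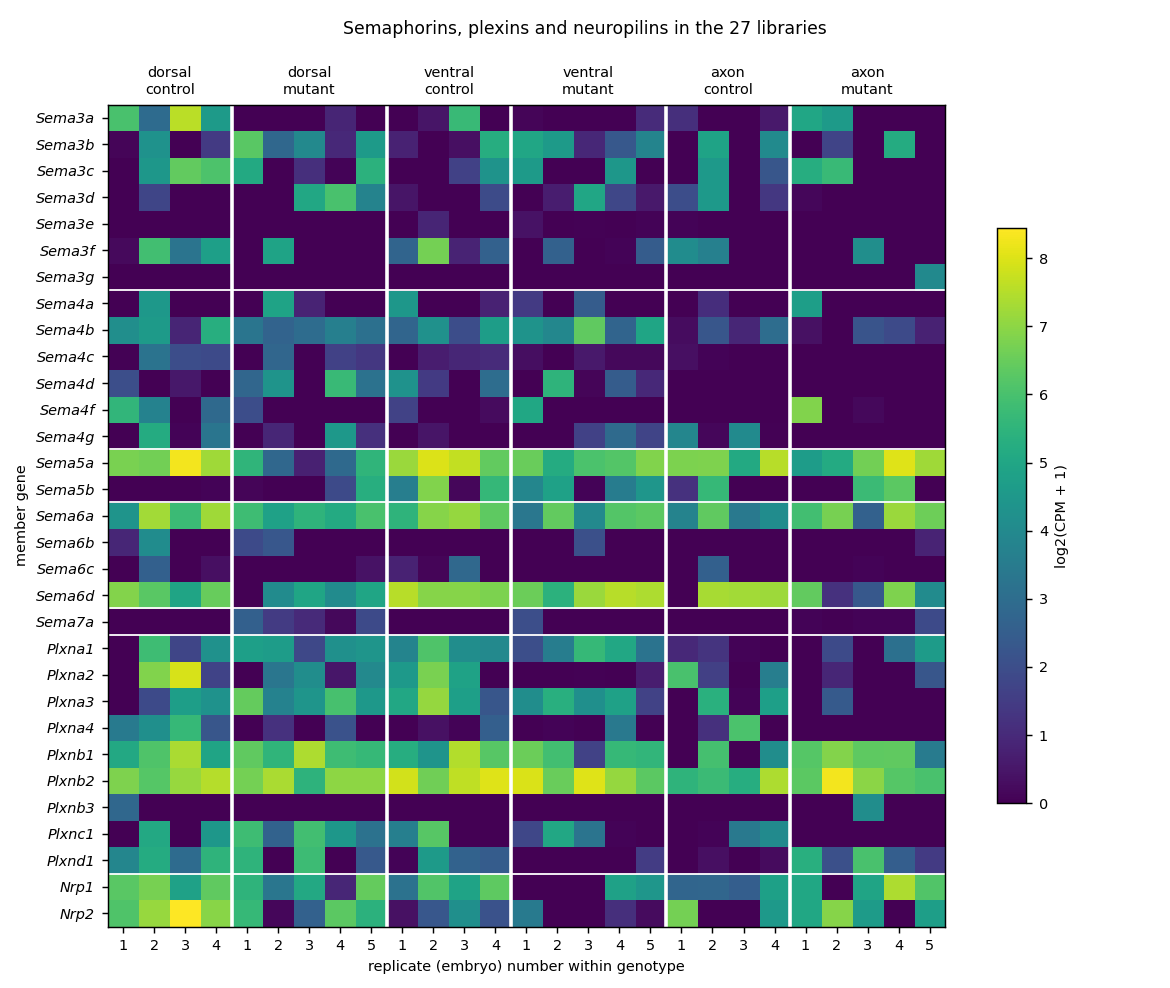
Level of the 31 members as log2(CPM + 1) in each of the 27 libraries, with members in rows (semaphorin classes 3 to 7, then plexins, then neuropilins, separated by thin lines) and libraries in columns by group and replicate number. Plxnb2, Sema5a and Sema6a are above 0 in all 27 libraries, whereas most other members alternate between 0 and over 10 CPM within a group.

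Compared per exonic length as transcripts per M (TPM), Plxnb2 had the highest mean level of the family over all libraries and in every group but axon controls, where Sema6d was higher (25.1 ± 16.8 against 22.9 ± 19.9 TPM, SD, n = 4). Plxnb2, a receptor for class 4 semaphorins, was above the floor in 27 of 27 libraries with a mean of 43.7 TPM over the 27. The transmembrane ligands Sema6d (19.7 TPM, above the floor in 25 libraries), Sema6a (18.8 TPM, 27 libraries) and Sema5a (13.9 TPM, 27 libraries) and the receptor Plxnb1 (16.3 TPM, 25 libraries) followed. Nrp1 (9.92 TPM) and Nrp2 (9.59 TPM) came next on this scale, and the remaining members had means of at most 7.46 TPM. The order of the secreted ligands turned between groups. Over all libraries Sema3b had the highest mean (6.58 TPM), but in dorsal controls it was at 3.01 ± 5.36 TPM, below Sema3c (16.0 ± 14.2), Sema3a (13.0 ± 14.8) and Sema3f (12.2 ± 13.7, all SD, n = 4). Sema3a (2.63 TPM over all libraries) was above the floor in only 12 libraries. The lowest mean belonged to Sema3e, at 0.0135 TPM. Below Plxnb2, neighbours in this order did not differ beyond the spread of their libraries.

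**Figure D2:**
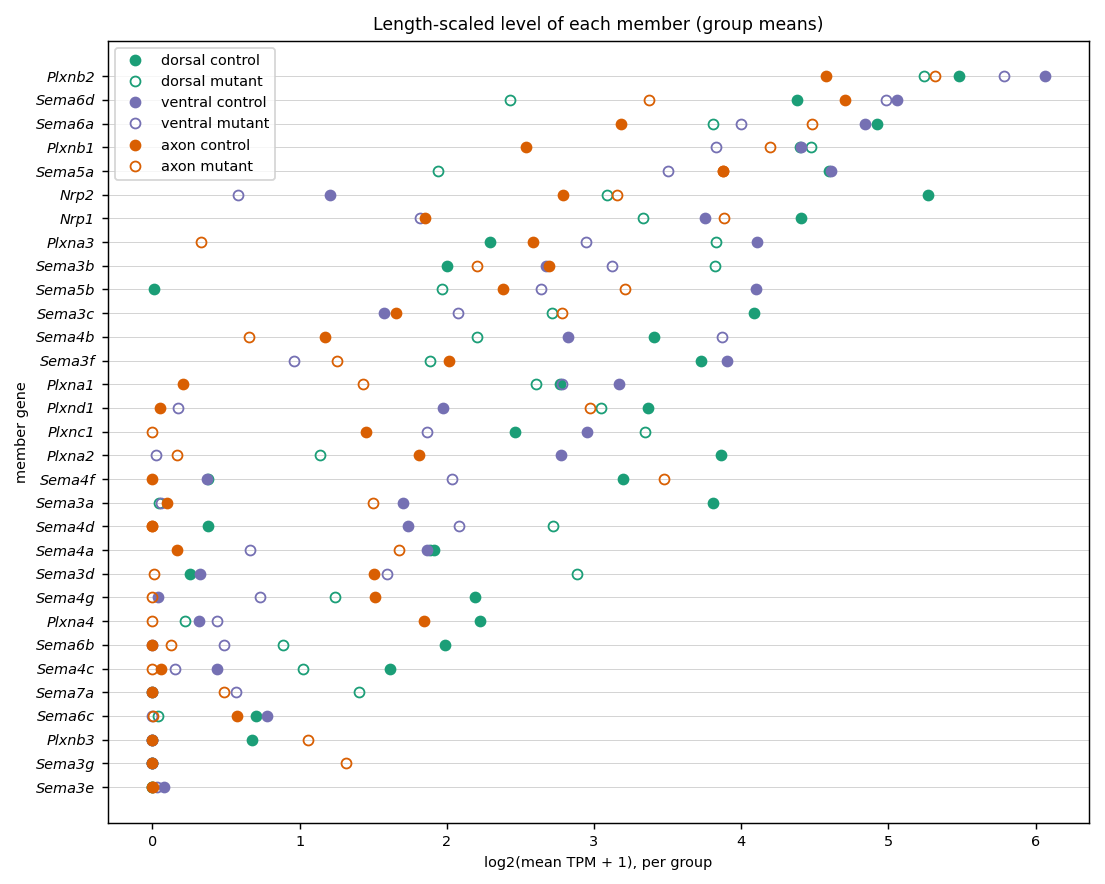
Mean TPM of each member in the 6 groups on a log2(TPM + 1) axis, members ordered by their mean over groups, with filled circles for controls and open circles for mutants. Plxnb2 has the highest mean in every group but axon controls, where Sema6d lies to its right, and Nrp2, Sema5b, Sema5a and Plxna3 spread widely between groups.

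Shown here are the promoters of 4 members with lower mean levels in dorsal mutants. They place these members in the genome and mark the binding motifs searched for. The 4 were chosen after the dorsal values were seen. Sema7a and Sema4d, with higher mean levels in dorsal mutants, are not shown. The RefSeq table on GRCm38.p6 holds 37 start sites for 26 of the 31 members, each from 250 bases before to 50 bases after the start. All 4 lie on the plus strand: Nrp2 at chr1:62703067-62703366, Sema6d at chr2:124089719-124090018 (1 of 2 listed start sites), Sema3a at chr5:13396534-13396833 and Sema5a at chr15:32244563-32244862. The Sema3a window lies inside the gene as annotated for the levels, which starts at base 13125414 of chromosome 5. The sequence around that start was not searched. Capitals mark a match, on either strand, to one of 4 motifs: the E-box CACGTG and the M-box core CATGTG of Mitf, the Otx2 core TAATCC and the Sox core AACAAT.
Nrp2: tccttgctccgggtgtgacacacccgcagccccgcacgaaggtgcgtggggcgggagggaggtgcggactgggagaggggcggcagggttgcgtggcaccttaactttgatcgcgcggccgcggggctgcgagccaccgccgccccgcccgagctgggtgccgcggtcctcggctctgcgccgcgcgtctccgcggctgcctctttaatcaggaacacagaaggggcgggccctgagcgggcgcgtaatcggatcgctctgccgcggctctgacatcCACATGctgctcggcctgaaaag
Sema6d: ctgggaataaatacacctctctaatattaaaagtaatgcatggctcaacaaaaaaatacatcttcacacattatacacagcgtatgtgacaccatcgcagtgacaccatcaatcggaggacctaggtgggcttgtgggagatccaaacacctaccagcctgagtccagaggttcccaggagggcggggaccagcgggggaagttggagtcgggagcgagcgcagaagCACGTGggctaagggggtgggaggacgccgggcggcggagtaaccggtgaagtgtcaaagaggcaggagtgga
Sema3a: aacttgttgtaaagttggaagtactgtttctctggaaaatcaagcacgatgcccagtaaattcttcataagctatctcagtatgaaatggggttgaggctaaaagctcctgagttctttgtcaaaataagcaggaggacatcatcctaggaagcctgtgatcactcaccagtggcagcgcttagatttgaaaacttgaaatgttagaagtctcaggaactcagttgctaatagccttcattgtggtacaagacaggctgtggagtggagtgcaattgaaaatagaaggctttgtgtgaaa
Sema5a: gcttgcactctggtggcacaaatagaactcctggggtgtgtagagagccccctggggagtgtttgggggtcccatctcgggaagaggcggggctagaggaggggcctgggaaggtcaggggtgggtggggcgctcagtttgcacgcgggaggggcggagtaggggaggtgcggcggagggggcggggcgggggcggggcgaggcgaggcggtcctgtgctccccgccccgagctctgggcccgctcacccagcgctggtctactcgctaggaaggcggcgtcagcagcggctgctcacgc
CATGTG, the motif held on the minus strand of the Nrp2 window, starts at base 28 of the transcript and occurs in 3 of the 37 member windows and in 14.2% of all 32851. CACGTG, which reads the same on both strands, lies 23 bases before the Sema6d start and occurs in 3 member windows and in 7.15% of all. TAATCC was in 0 of the 37 windows (7.06% of all) and AACAAT in 2 (10.7% of all), those of Plxnb3 and Sema4d. The windows of Sema3a and Sema5a hold none of these letters. They differ in base composition, with 41.3% G and C for Sema3a and 71.3% for Sema5a beside a median of 63.7% over the member windows and 52.7% over all.

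In the dorsal stalk, several secreted and transmembrane semaphorins and Nrp2 had lower levels in the mutants than in the controls, although no member passed the test after adjustment and 11 of 28 members had a higher fitted level in mutants. Sema3a, a repellent ligand that acts through Nrp1 and class A plexins, was at 63.8, 6.70, 189 and 23.4 CPM in the 4 dorsal controls and at 0, 0, 0, 0.828 and 0 CPM in the 5 dorsal mutants. All controls lay above all mutants, 4 of which had no count. The means were 70.8 ± 82.5 CPM (SD, n = 4) and 0.166 ± 0.370 CPM (SD, n = 5). The fitted log2 difference (mutant minus control) was -9.19 ± 2.12 (SE), with an edgeR adjusted p = 0.533 over 16145 genes. The exact permutation p (two-sided, log2(CPM + 1)) was 0.00794, the smallest that splits of 4 against 5 can give, and 0.0250, again the smallest possible, when splits kept the batch composition, beside an unadjusted edgeR p = 0.00100. The mean difference in log2(CPM + 1) was -6.02 within batch A and -4.61 within batch B.

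Sema5a, a transmembrane ligand with thrombospondin repeats, stood at 105, 98.3, 312 and 149 CPM in dorsal controls and at 45.3, 6.14, 0.707, 6.41 and 45.0 CPM in dorsal mutants. The groups did not overlap, and mutants 1 and 5 lay well above the other mutants. Means were 166 ± 99.6 CPM (SD, n = 4) and 20.7 ± 22.4 CPM (SD, n = 5), a log2 difference of -2.76 ± 1.03 (SE) with an edgeR adjusted p = 0.918. Its unadjusted edgeR p = 0.0206 stood beside an exact permutation p of 0.0238 over all splits and 0.0250 within batches, and the differences in log2(CPM + 1) were -3.69 in batch A and -3.18 in batch B.

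Sema6d, a class 6 ligand and a partner of Plxna1, held 117, 77.4, 29.3 and 88.2 CPM in dorsal controls and 0, 16.0, 30.3, 15.7 and 29.9 CPM in dorsal mutants. Control 3 lay just below mutants 3 and 5, so the groups overlapped, and the exact permutation p was 0.0476 (0.05 within batches) beside an unadjusted edgeR p = 0.136. Sema4f, a transmembrane ligand of neurons, was at 46.6, 12.4, 0 and 6.39 CPM in controls and 3.03, 0, 0, 0 and 0 CPM in mutants. Control 3 and 4 mutants shared the value 0. Its log2 difference was -7.92 ± 3.54 (SE) (edgeR p = 0.0454, adjusted p = 0.918; exact permutation p = 0.0873).

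Of the 11 members with a higher fitted level in dorsal mutants, Sema7a and Sema5b had an unadjusted edgeR p under 0.05. Sema7a, the lipid-anchored ligand known to signal through integrins, had no count in any of the 4 dorsal controls and 4.95, 1.79, 0.990, 0.138 and 2.73 CPM in the 5 dorsal mutants. Mutant 4 held at most 3 counts (0.207 CPM in that library), so 4 of the 5 mutants were above the floor. Such counts do not settle the order of mutant 4 against the controls at 0. The mutant mean of 2.12 ± 1.85 CPM (SD, n = 5) was at least 12.3-fold higher than the control floor of 3 counts per library. The edgeR p = 0.0227 had an adjusted p = 0.918, and the exact permutation p was 0.0159 over all splits and 0.0250 within batches. Sema5b, the class 5 relative of Sema5a, was at the floor in dorsal controls and at 0.0917, 0, 0, 2.69 and 38.2 CPM in mutants. Mutant 5 alone carried most of that level, and the bound of at least 47.5-fold rests on it (edgeR p = 0.0217, adjusted p = 0.918; exact permutation p = 0.286).

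Others of the 11 had larger means and overlapped between the genotypes. The secreted Sema3d was at 0, 2.42, 0 and 0 CPM in dorsal controls and 0, 0, 32.7, 63.3 and 12.8 CPM in dorsal mutants (exact permutation p = 0.167), and Sema3b had means of 5.19 ± 9.23 CPM (SD, n = 4) and 24.3 ± 30.3 CPM (SD, n = 5) (exact permutation p = 0.143). Sema4d, a ligand of Plxnb1, was at 3.08, 0, 0.472 and 0 CPM and 5.96, 19.5, 0, 52.3 and 8.04 CPM (exact permutation p = 0.0635). Of the receptors, Plxna3 had means of 11.7 ± 12.4 CPM (SD, n = 4) and 40.7 ± 32.3 CPM (SD, n = 5) (exact permutation p = 0.111) and Plxnc1 of 13.6 ± 16.4 CPM (SD, n = 4) and 29.8 ± 25.6 CPM (SD, n = 5) (exact permutation p = 0.222).

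Among the other receptors, Nrp2 was at 69.2, 141, 347 and 123 CPM in dorsal controls and at 49.4, 0.119, 5.09, 78.1 and 42.4 CPM in dorsal mutants. Mutant 4 lay above control 1, and the other 4 mutants lay below all controls. The means were 170.2 ± 122 CPM (SD, n = 4) and 35.0 ± 32.5 CPM (SD, n = 5) (edgeR p = 0.113; exact permutation p = 0.0556, and 0.0250 within batches). Nrp1 overlapped broadly, at 76.9, 105, 27.2 and 83.2 CPM and 44.5, 8.94, 32.9, 0.896 and 86.9 CPM. Plxna4, a class A plexin that pairs with neuropilins, was at 10.1, 17.2, 49.1 and 3.77 CPM in dorsal controls and at 0, 1.31, 0, 3.38 and 0 CPM in mutants. Every control exceeded every mutant, by a small margin between control 4 and mutant 4, with an exact permutation p of 0.0159 and an edgeR p = 0.123. Plxnb2 did not separate the genotypes, at 111, 72.6, 142 and 182 CPM and 101, 166, 43.5, 127 and 127 CPM.

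**Figure D3:**
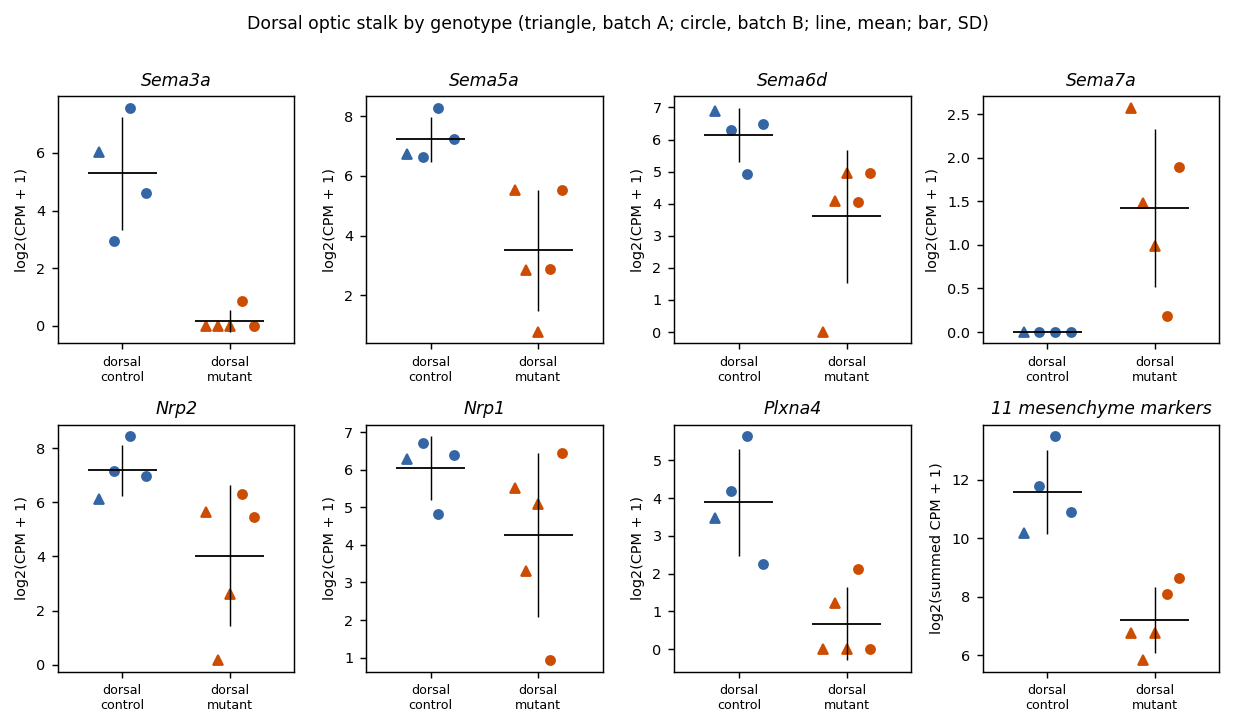
Dorsal libraries by genotype on a log2(CPM + 1) axis for 7 members and, in the last panel, for the summed CPM of 11 mesenchyme markers, with a point per library (triangles for batch A, circles for batch B), the mean as a line and the SD as a bar. Controls lie above mutants without overlap for Sema3a, Sema5a, Plxna4 and the mesenchyme sum, mutants lie above controls for Sema7a, and Sema6d, Nrp1 and Nrp2 overlap.

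In all, 4 of the 28 dorsal members measured did not overlap between genotypes (3 lower and 1 higher in mutants), against 2.92% of the 16145 genes tested. The 1 higher, Sema7a, was separated in full only through counts within the floor in mutant 4. An unadjusted edgeR p under 0.05 was reached by 5 of 28 members (2 higher, 3 lower), against 5.35% of all genes. After adjustment over all genes edgeR called 0 of 28, and 0.0124% of all genes, so none of these members passed the test. Over the splits of all genes the adjusted exact p of Sema3a was 0.450. DESeq2 called 2 members (Sema3a and Sema3f, both lower), beside 532 of the 16145 genes, and limma voom 0, beside 41. Without the count filter edgeR called Sema3a, beside 101 of 26264 genes. The median fitted log2 difference over the 28 members was -0.71, and stayed at -0.71 with the members at the floor set to their bound, beside -0.04 over all genes. This median rested on single libraries, at -0.12 without control 2, -0.39 without mutant 5 and 0.20 without mutant 4 (15 of 28 members then higher), and it was 1.55 in batch A alone and -1.29 in batch B alone. The marker sums given above differed between these same libraries, and their part in the levels of Sema3a, Sema5a and Nrp2 was not tested. Control 3 held the highest value of Sema3a, Sema5a, Nrp2 and Plxna4 and also the highest mesenchyme sum of the dorsal controls. It also held their lowest Sema6d (29.3 CPM) and Nrp1 (27.2 CPM). Control 2, with the next highest mesenchyme sum (3559 CPM), held the lowest Sema3a (6.70 CPM) and Sema5a (98.3 CPM) of these controls.

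In the ventral stalk, Sema5a, Plxna2 and Nrp1 had lower mean levels in mutants, and again no member passed the test after adjustment. Sema5a was at 143, 254, 203 and 84.9 CPM in ventral controls and at 90.4, 36.0, 66.0, 71.3 and 114 CPM in ventral mutants. Control 4 lay within the mutant range, and the other 3 controls lay above it. The log2 difference was -1.06 ± 0.46 (SE) (edgeR p = 0.0401, adjusted p = 0.999; exact permutation p = 0.0397, and 0.05 within batches). Plxna2, a class A receptor, was at 22.6, 106, 28.5 and 0 CPM in controls and at 0, 0, 0.0294, 0 and 0.612 CPM in mutants. Control 4 and 3 mutants shared the value 0, and the other 3 controls were far above all mutants. Its log2 difference was -8.37 ± 2.51 (SE) (edgeR p = 0.00625, adjusted p = 0.999; exact permutation p = 0.0476, and 0.0750 within batches).

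Ventral controls held 8.07, 70.2, 29.0 and 80.4 CPM of the co-receptor Nrp1, and ventral mutants 0, 0, 0, 27.3 and 20.8 CPM. The 3 mutants at 0 are the 3 of batch A, and in both batches the controls lay higher on average, by 3.18 (batch A) and 1.17 (batch B) in log2(CPM + 1). The log2 difference was -4.57 ± 2.05 (SE) (edgeR p = 0.0469, adjusted p = 0.999; exact permutation p = 0.0635, and 0.0250 within batches). Sema6c was at 0.767, 0.0763, 6.17 and 0 CPM in controls and had no count in the mutants, at least 10.9-fold lower (edgeR p = 0.0405, adjusted p = 0.999; exact permutation p = 0.0476). Sema6d showed no such gap, at 184, 119, 119 and 109 CPM and 92.3, 42.0, 144, 185 and 169 CPM, with groups that overlapped.

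Of 28 ventral members tested, 4 had an unadjusted edgeR p under 0.05, all lower in mutants, beside 3.19% of all genes, and edgeR called 0 (0% of all genes). No ventral member separated the genotypes completely, beside 1.23% of all genes. DESeq2 called 1 member, Plxna2, beside 342 of 16139 genes, and limma voom 0, beside 6 genes. The median log2 difference of the members was -0.82, with members at the floor at their bound or not, beside -0.08 over all genes. It was -0.22 without mutant 5, -0.41 without control 2, -0.53 without control 3, 0.38 in batch A alone and -1.14 in batch B alone. The ventral mesenchyme sums overlapped between genotypes.

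In the axon pieces, Sema4g and Sema3d had lower and Plxnd1 higher levels in mutants, and no member passed the test after adjustment. Sema4g, a transmembrane class 4 ligand, was at 13.7, 0.109, 15.5 and 0.0458 CPM in axon controls and had no count in the 5 mutants, at least 45.3-fold lower than controls. All controls had at least 1 count, so the groups did not overlap by value, but controls 2 and 4 held at most 3 counts. Only 2 of the 4 controls were thus above the floor, and counts of 0 to 3 do not settle an order. The full separation and its exact permutation p = 0.00794, the smallest possible, rest on controls 2 and 4 (edgeR p = 0.0215, adjusted p = 0.880). Sema3d, a secreted ligand, was at 2.95, 22.6, 0 and 1.56 CPM in controls and at the floor in mutants, at least 41.7-fold lower (edgeR p = 0.0440, adjusted p = 0.880; exact permutation p = 0.0476). Sema7a had no count in axon controls and 0.0572, 0, 0.0680, 0.0584 and 2.75 CPM in mutants, of which only mutant 5 exceeded 3 counts (at least 3.63-fold higher; edgeR p = 0.0360, adjusted p = 0.880; exact permutation p = 0.405).

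Plxnd1, a receptor of Sema3e known from endothelium, was at 0, 0.273, 0 and 0.183 CPM in axon controls and at 39.4, 3.15, 63.8, 4.79 and 1.73 CPM in axon mutants. All 5 mutants lay above all 4 controls (exact permutation p = 0.0159 over all splits and 0.0250 within batches; edgeR p = 0.0973). Its ligand Sema3e had at most 1 read in any axon library. The sum of 8 endothelial markers was 123, 12.5, 105 and 189 CPM in axon controls and 471, 385, 301, 37.2 and 305 CPM in axon mutants, and its part in the Plxnd1 level was not tested. Nrp1, which RGCs and endothelium both express, was at 5.73, 5.84, 4.77 and 27.1 CPM in axon controls and at 31.7, 0, 29.9, 167 and 70.7 CPM in axon mutants, with overlap through mutant 2.

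In the axon pieces 2 of 27 members did not overlap between the genotypes, beside 1.28% of all genes. Of these, Sema4g was separated in full only through control counts within the floor. An unadjusted edgeR p under 0.05 was reached by 3 of 27 members, beside 3.55% of all genes, and edgeR called 0 (0% of all genes). DESeq2 called 4 (Plxnd1 higher, and Plxna3, Sema3c and Sema3d lower in mutants), beside 1233 of 14977 genes, and limma voom 0, beside 45 genes. For Sema3c this fitted direction, with batch as a term, was opposite to that of the means. These were 6.52 ± 10.6 CPM in axon controls (SD, n = 4) and 17.8 ± 24.9 CPM in axon mutants (SD, n = 5). The median log2 difference of the members was 0.11 beside -0.29 over all genes, and 9 members had 1 group at the floor. Its sign turned with single libraries, from -1.15 without control 1 and -1.01 without mutant 3 to 0.87 without mutant 5, and it was -0.23 without control 3, -0.03 without mutant 2, -0.45 by limma voom, 2.29 in batch A alone and -1.12 in batch B alone.

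Regions were compared within the controls to place the members along the stalk. Nrp2 was higher in the dorsal stalk, at the dorsal values given and at 0.307, 3.89, 17.4 and 3.42 CPM in ventral controls, so that all dorsal controls lay above all ventral controls. The log2 difference was 4.72 ± 1.09 (SE) (edgeR p = 0.000997, adjusted p = 0.615; exact permutation p = 0.0286, the smallest that 4 against 4 can give). Sema5b showed the opposite order, at the floor in dorsal controls and at 11.3, 114, 0.114 and 48.5 CPM in ventral controls, at least 252-fold lower in dorsal (edgeR p = 0.00176, adjusted p = 0.615; exact permutation p = 0.0286). Ventral control 3, at 0.114 CPM, was the only ventral control with at most 3 counts. Its place above the dorsal controls, on which the full separation rests, is within the floor. Sema6b was at 0.873, 16.1, 0 and 0 CPM in dorsal controls and had no count in ventral controls, a bound of at least 23.0-fold that rests on control 2 (edgeR p = 0.0409, adjusted p = 0.615; exact permutation p = 0.429). The sum of 8 endothelial markers was 385, 448, 488 and 260.3 CPM in dorsal and 44.6, 140.0, 208 and 70.3 CPM in ventral controls, without overlap, and the mesenchyme sums overlapped through ventral control 3. The part of either in the Nrp2 difference was not tested.

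**Figure D4:**
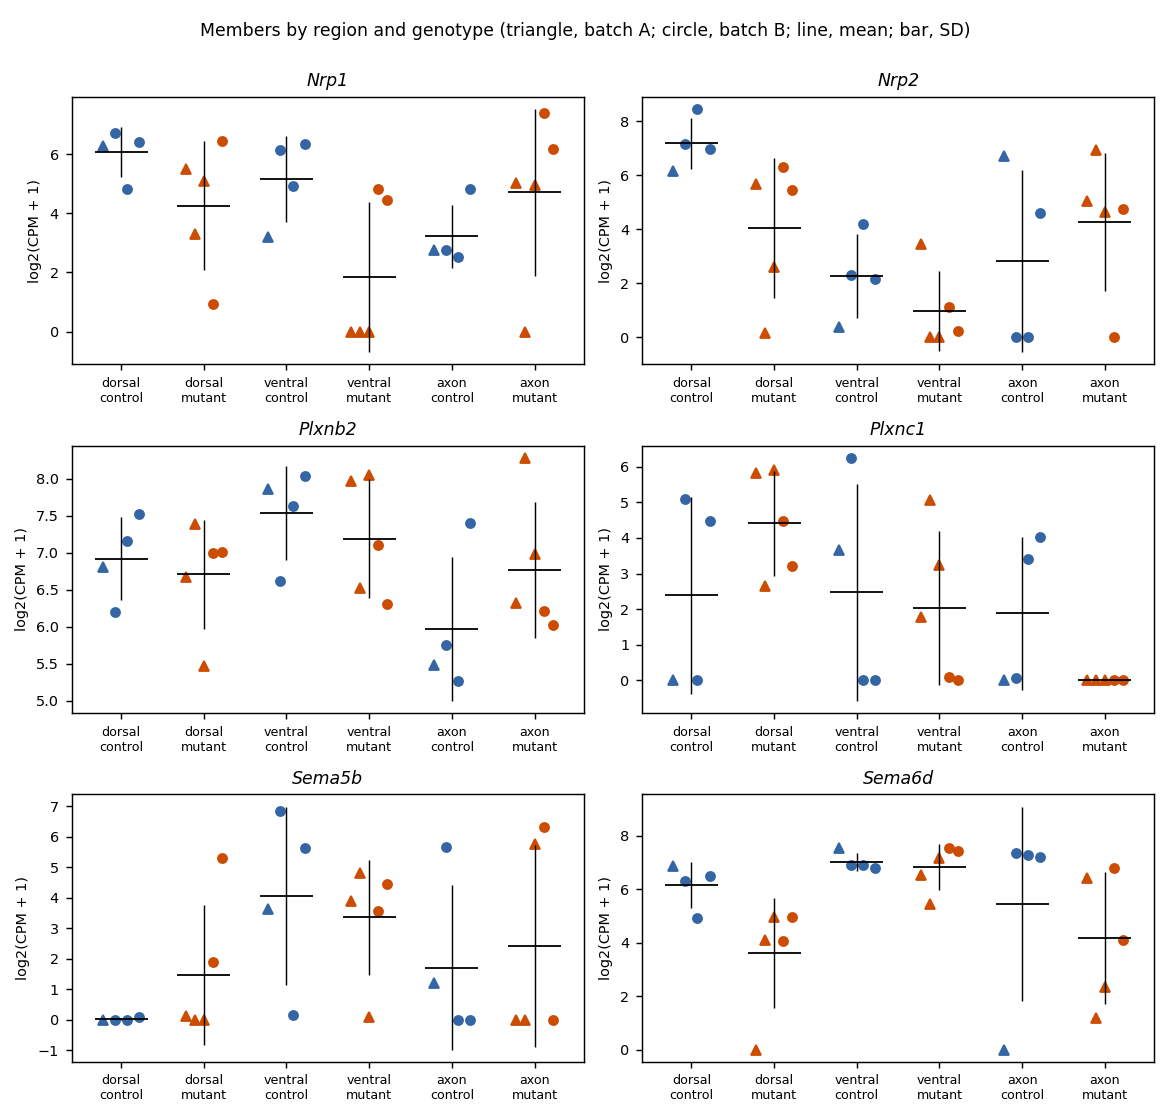
Nrp1, Nrp2, Plxnb2, Plxnc1, Sema5b and Sema6d in the 6 groups on a log2(CPM + 1) axis, with a point per library (blue for controls, orange for mutants, triangles for batch A, circles for batch B), the mean as a line and the SD as a bar. Nrp2 is highest in dorsal controls, Plxnc1 has no count in the 5 axon mutants, and Sema6d is low in dorsal mutants beside the ventral groups.

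Against the axon pieces, dorsal controls had higher levels of Sema3a and Plxnd1, again without passing the test after adjustment. Sema3a was at 1.22, 0, 0 and 0.504 CPM in axon controls, all below the dorsal controls, with a log2 difference of 7.18 ± 2.25 (SE) (edgeR p = 0.00709, adjusted p = 0.386; exact permutation p = 0.0286). Plxnd1 was at 13.7, 35.3, 6.67 and 44.1 CPM in dorsal controls, all above the axon controls, with a log2 difference of 7.51 ± 2.73 (SE) (edgeR p = 0.0166, adjusted p = 0.386; exact permutation p = 0.0286). The endothelial sums of these pieces, 260.3 to 488 CPM in dorsal and 12.5 to 189 CPM in axon controls, did not overlap either, and their part in the Plxnd1 difference was not tested. Nrp1 also separated the pieces, at 76.9, 105, 27.2 and 83.2 CPM in dorsal and 5.73, 5.84, 4.77 and 27.1 CPM in axon controls, narrowly so between dorsal control 3 and axon control 4 (exact permutation p = 0.0286; edgeR p = 0.0625). Sema4f and Sema6b had no count in axon controls, at least 101-fold (edgeR p = 0.0150, exact permutation p = 0.143) and at least 26.3-fold (edgeR p = 0.0417, exact permutation p = 0.429) below the dorsal mean, and Sema5b was at the floor in dorsal controls, at least 73.5-fold below the axon mean of 12.7 ± 24.5 CPM (SD, n = 4) (edgeR p = 0.0343, exact permutation p = 0.429). These 3 have an adjusted p = 0.386 each and overlap between the pieces.

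Plxnb2 and Plxna1 had higher mean levels in ventral than in axon controls, without passing the test after adjustment. Plxnb2 was at 232, 97.3, 198 and 261 CPM in ventral and at 43.8, 52.8, 37.4 and 168 CPM in axon controls. Axon control 4 lay above ventral control 2, and otherwise the pieces were separate, with a log2 difference of 1.23 ± 0.55 (SE) (edgeR p = 0.0435, adjusted p = 0.453; exact permutation p = 0.0571). Plxna1, a receptor of Sema6d, was at 13.0, 68.0, 16.8 and 14.7 CPM in ventral and at 0.946, 1.42, 0.0596 and 0 CPM in axon controls with no overlap, a log2 difference of 5.33 ± 2.30 (SE) (edgeR p = 0.0388, adjusted p = 0.453; exact permutation p = 0.0286). Of its exonic bases 10.7% are shared with a gene on the opposite strand, and the strand setting of the counting is not given in the sources used here. Sema4d, the Plxnb1 ligand, was at 18.6, 1.68, 0 and 7.02 CPM in ventral controls and had no count in any axon library of either genotype (at least 42.2-fold higher in ventral; edgeR p = 0.0233, adjusted p = 0.453; exact permutation p = 0.143). Sema4f was at 2.20, 0, 0 and 0.186 CPM in ventral controls and at 0 in axon controls (at least 3.69-fold; edgeR p = 0.0476; exact permutation p = 0.429).

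Unadjusted edgeR p-values under 0.05 were found for 3 of 27 members between dorsal and ventral controls (6.74% of all genes), 6 of 27 between dorsal and axon controls (10.5%) and 4 of 26 between ventral and axon controls (9.19%). After adjustment edgeR called 0 members in each, beside 0%, 0.0692% and 0.0316% of all genes. DESeq2 called 2, 4 and 3 members, beside 243 of 16118, 561 of 15899 and 427 of 15839 genes. With limma voom 0, 1 and 0 members were called, the 1 being Plxnd1, beside 18, 47 and 28 genes. Median log2 differences over members were -0.07 (dorsal minus ventral), 1.81 (dorsal minus axon) and 1.54 (ventral minus axon), against 0.01, 0.29 and 0.22 over all genes. The first changed sign with single libraries (0.80 without ventral control 2, -0.12 without ventral control 1), the second was 1.12 without dorsal control 2 and the third 0.63 without ventral control 2. Fewer genes had a count in axon libraries, 12143 on average in controls, than in dorsal (14132) or ventral (14294) controls, and the part of this in the low axon values was not tested.

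In the mutants, Sema6d parted the dorsal from the ventral stalk. It was at 0, 16.0, 30.3, 15.7 and 29.9 CPM in dorsal and 92.3, 42.0, 144, 185 and 169 CPM in ventral mutants, with every ventral value above every dorsal value. The log2 difference was -2.75 ± 0.96 (SE) (edgeR p = 0.0123, adjusted p = 0.381; exact permutation p = 0.00794, the smallest possible, and 0.517 adjusted over all genes). In controls the same comparison gave 117, 77.4, 29.3 and 88.2 CPM in dorsal and 184, 119, 119 and 109 CPM in ventral libraries, with overlap at dorsal control 1 (exact permutation p = 0.0571). Plxna2 was at 0, 8.94, 16.8, 0.414 and 14.8 CPM in dorsal mutants and near 0 in ventral mutants, a log2 difference of 5.95 ± 2.71 (SE) (edgeR p = 0.0454, adjusted p = 0.388; exact permutation p = 0.0873).

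Plxnc1, the receptor of Sema7a, had no count in the 5 axon mutants. It was at 55.3, 5.25, 58.8, 21.4 and 8.18 CPM in dorsal mutants, at least 183-fold higher than the axon floor, and no dorsal mutant lay below 5.25 CPM (edgeR p = 0.00106, adjusted p = 0.101; exact permutation p = 0.00794, the smallest possible). In ventral mutants it was at 2.46, 32.8, 8.42, 0.0697 and 0 CPM (at least 53.8-fold; edgeR p = 0.0110, adjusted p = 0.214; exact permutation p = 0.0476). In the axon controls Plxnc1 was at 0, 0.0546, 9.60 and 15.3 CPM, so 2 of 4 controls carried it.

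The class 4 ligands Sema4d, Sema4g and Sema4c and the secreted Sema3d were likewise without a count, or at the floor, in axon mutants. Sema4d was at 5.96, 19.5, 0, 52.3 and 8.04 CPM in dorsal and 0, 43.6, 0.0883, 4.46 and 0.980 CPM in ventral mutants beside no count in axon mutants (at least 106-fold and 60.6-fold; edgeR p = 0.00481 and p = 0.0118; exact permutation p = 0.0476 and 0.0476). Sema4g was at 0, 0.894, 0, 21.4 and 1.26 CPM and 0, 0, 2.12, 6.62 and 2.33 CPM beside no count in axon mutants (at least 29.1-fold and 13.6-fold; edgeR p = 0.0174 and p = 0.0184; exact permutation p = 0.167 and 0.167). Sema4c was low throughout, at 0, 5.96, 0, 2.07 and 1.60 CPM and 0.237, 0, 0.500, 0.139 and 0.122 CPM (at least 11.9-fold and 1.23-fold above the axon floor; edgeR p = 0.0169 and p = 0.0205; exact permutation p = 0.167 and 0.0476). The secreted Sema3d, at 0, 0, 32.7, 63.3 and 12.8 CPM in dorsal and 0, 0.615, 30.6, 2.44 and 0.490 CPM in ventral mutants, was at the floor in axon mutants (at least 134-fold and 42.1-fold; edgeR p = 0.00979 and p = 0.0230; exact permutation p = 0.167 and 0.0476). The adjusted p of each of these was 0.182 against dorsal and 0.214 against ventral. Each of these 4 members overlapped between dorsal and axon mutants, through dorsal mutants without a count.

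Plxna3 and Sema4b, which have no edgeR p among the smallest, were also separated in full between dorsal and axon mutants. Plxna3, a class A receptor, was at 86.4, 12.4, 20.1, 63.0 and 21.5 CPM in dorsal and 0, 4.31, 0, 0 and 0 CPM in axon mutants, and Sema4b was at 8.72, 5.48, 6.86, 11.5 and 7.64 CPM and 0.286, 0, 3.60, 2.74 and 0.754 CPM. For both the exact permutation p was 0.00794, the smallest possible, and 0.190 adjusted over all genes. They were singled out after their values were seen. The share of all genes separated in full was not counted for any comparison between regions. Whether these members, or those separated in full between other regions, stand out from other genes thus cannot be told.

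Unadjusted edgeR p-values under 0.05 were found for 2 of 28 members between dorsal and ventral mutants (12.4% of all genes), 8 of 28 between dorsal and axon mutants (23.5%) and 7 of 28 between ventral and axon mutants (21.8%). edgeR called 0 members in each, beside 0%, 0.545% and 0.443% of all genes. DESeq2 called 0, 3 and 4 members, beside 460 of 16168, 1571 of 15780 and 1352 of 15804 genes. With limma voom 0, 3 and 2 members were called, beside 24, 682 and 537 genes. Plxnc1 and Sema4d were called by both tools between dorsal and axon mutants. The axon mutant libraries had the fewest genes with a count (10146 on average beside 13576 in dorsal and 14095 in ventral mutants), and the part of this in the members without a count there was not tested.

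Whether the genotype difference itself varied between regions was tested as an interaction over all 27 libraries. No member was called, beside 0.00612% (dorsal against ventral), 0.0245% (dorsal against axon) and 0.00612% (ventral against axon) of all 16330 genes. Unadjusted edgeR p-values under 0.05 were found for 1, 7 and 7 of 28 members, against 7.39%, 11.7% and 10.4% of all genes. DESeq2 called 1, 6 and 5 members, beside 587, 1432 and 1346 of the 16330 genes. With limma voom 0 members were called in each, beside 11, 52 and 20 genes.

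The smallest p between dorsal and ventral belonged to Sema4f (edgeR adjusted p = 0.630). Sema4f also had the smallest p between dorsal and axon (edgeR adjusted p = 0.233), where it was at 114, 0, 0.136, 0 and 0 CPM in axon mutants, nearly all of it from mutant 1. Sema3a was next (edgeR adjusted p = 0.233), at 30.8, 23.1, 0, 0 and 0 CPM in axon mutants, above the axon controls in mutants 1 and 2 and at 0 in the rest. Sema3d (edgeR adjusted p = 0.245 against dorsal and adjusted p = 0.338 against ventral) was higher in the mutants of both stalk pieces on average and lower in axon mutants. Between ventral and axon the smallest p belonged to Sema4g (edgeR adjusted p = 0.298) and Plxnd1 (edgeR adjusted p = 0.298). Plxnd1 was at 0.0511, 23.5, 5.26 and 4.47 CPM in ventral controls and 0, 0, 0, 0 and 1.84 CPM in ventral mutants, which is the opposite order to the axon pieces. Most of these genes have a group at or near the floor, where the size of a fitted interaction depends on the prior count, so no size is given.

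The remaining secreted ligands varied widely between embryos of a group. Sema3c, a ligand of Nrp1 and Nrp2, was at 0, 20.9, 84.2 and 67.7 CPM in dorsal controls and 34.2, 0, 1.20, 0.0690 and 42.1 CPM in dorsal mutants, and lay between 0 and 51.4 CPM elsewhere. Sema3f, a ligand of Nrp2, was at 0.166, 57.9, 8.56 and 26.0 CPM in dorsal controls and had a count in only 1 of 5 dorsal mutants, mutant 2 at 28.6 CPM. It reached its highest value, 100.4 CPM, in ventral control 2. Sema3b spanned 0 to 76.2 CPM with the highest value in dorsal mutant 1. Sema3e, the Plxnd1 ligand, reached at most 0.839 CPM (ventral control 2), and Sema3g had counts in a single library, axon mutant 5, at 15.1 CPM.

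Among the transmembrane ligands, Sema6a, a receptor and ligand for Plxna2 and Plxna4, was at 19.8, 155, 52.5 and 152 CPM in dorsal controls and 55.2, 27.7, 43.6, 34.8 and 63.2 CPM in dorsal mutants. Dorsal control 1 lay below all mutants and controls 2 and 4 above them. Over the other groups Sema6a spanned 5.17 to 145 CPM with overlap in each region. Sema4b had a count in 26 of 27 libraries, from 0.826 to 38.2 CPM in dorsal controls and 5.65 to 81.6 CPM in ventral mutants to 0.223 to 7.05 CPM in axon controls. Sema4a was above the floor in 9 libraries, with a highest value of 28.9 CPM, and Sema6c in 6, with a highest value of 6.17 CPM.

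Of the receptors, Plxnb1 was at 29.6 to 164 CPM in dorsal controls, 44.8 to 167 CPM in dorsal mutants, 19.9 to 175 CPM in ventral controls, 2.21 to 91.9 CPM in ventral mutants, 0 to 61.4 CPM in axon controls and 10.5 to 118 CPM in axon mutants. The 6 ranges overlap one another. Plxna1 and Plxna3 were above the floor in 22 and 20 libraries. Plxnb3 had counts in 2 libraries only, dorsal control 1 (5.99 CPM) and axon mutant 3 (16.5 CPM). Summed over all 31 members, the level was 1169 ± 409 CPM in dorsal controls (SD, n = 4) and 583 ± 115 CPM in dorsal mutants (SD, n = 5), with ranges of 694 to 1686 and 423 to 726 CPM that overlapped through 1 mutant. The ventral sums were 1004 ± 237 and 629 ± 77.6 CPM in controls and mutants. Their ranges of 795 to 1330 and 509 to 688 CPM did not overlap. The axon sums were 509 ± 181 and 676 ± 199 CPM in controls and mutants, and their ranges of 331 to 666 and 481 to 966 CPM overlapped. No test was run on these sums.

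A list of 44 partners (co-receptors such as L1cam and Nrcam, VEGF ligands and receptors, and effectors downstream of plexins such as the collapsin response mediator Dpysl3) was compared the same way, and edgeR called 0 of its 39 or 40 tested genes in each of the 12 comparisons. In the dorsal genotype comparison 4 of 40 had an unadjusted edgeR p under 0.05 (1 higher, 3 lower in mutants), beside 5.35% of all genes. They were led by Dpysl3 (log2 difference -0.85 ± 0.29 (SE), adjusted p = 0.918), the GTPase Rac1 (-1.46 ± 0.61 (SE), adjusted p = 0.918) and the adhesion molecule Chl1 (-6.20 ± 2.60 (SE), adjusted p = 0.918). In the ventral comparison 1 of 40 did, again Dpysl3 (-0.64 ± 0.23 (SE), adjusted p = 0.999), beside 3.19% of all genes. In the axon comparison 2 of 40 did, Chl1 (adjusted p = 0.880) and Dpysl2 (-0.90 ± 0.41 (SE), adjusted p = 0.880), beside 3.55% of all genes. The ventral and axon partners named here all had a lower fitted level in mutants.

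Between the regions of the controls, 2 of 39 partners (dorsal against ventral), 5 of 40 (dorsal against axon) and 4 of 40 (ventral against axon) had an unadjusted edgeR p under 0.05. The shares of all genes were 6.74%, 10.5% and 9.19%. The smallest p-values were those of Sh3bp1 and the VEGF receptor Kdr (both adjusted p = 0.615) between dorsal and ventral pieces. Between dorsal and axon pieces they were those of Cfl1, which severs actin filaments and had a lower fitted level in dorsal pieces (-0.96 ± 0.27 (SE), adjusted p = 0.386), Cntn2 and Flt4. Between ventral and axon pieces they were those of Flt4, Farp2 and Mical3 (each adjusted p = 0.453). In mutants 1 of 40 (Met, adjusted p = 0.381), 11 of 40 and 8 of 40 partners had such a p, beside 12.4%, 23.5% and 21.8% of all genes. Dpysl3, which acts in growth cones, had a lower fitted level in the dorsal (-1.24 ± 0.30 (SE), adjusted p = 0.0885) and ventral (-0.85 ± 0.23 (SE), adjusted p = 0.204) than in the axon pieces of mutants. Vegfc and Itga1 (both adjusted p = 0.182) came next between dorsal and axon mutants, and Vegfc (adjusted p = 0.166) and Chl1 (adjusted p = 0.214) stood beside Dpysl3 between ventral and axon mutants. In the interactions 1, 7 and 4 of 40 partners had an unadjusted edgeR p under 0.05, beside 7.39%, 11.7% and 10.4% of all genes. These partners were led by Met (adjusted p = 0.498 for dorsal against ventral), by Met (adjusted p = 0.233), Vegfc and Dpysl3 for dorsal against axon, and by Chl1 (adjusted p = 0.298), Vegfc and Flt4 for ventral against axon.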

How the data were processed

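Counts per gene were deposited by the authors, whose pipeline (Seq2Science with default settings) used STAR on mm10 with HTSeq and Salmon named in the submitters' processing notes. Versions, annotation release and strand setting are not given in the sources used here. Totals of 10.9 to 34.0 M counts per library set the precision, with no molecular identifiers. Symbols, gene types and exonic lengths came from GENCODE M21, which matched 55227 of 55487 genes (the others hold 0.00287% of counts), and TPM was computed from these lengths.

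The members and lists were chosen with earlier results of these data known. The fits used the 16330 genes whose count exceeded 10 in 3 or more libraries. Counts were fitted with edgeR 4.0.16 (R 4.3.3, TMM scaling, quasi-likelihood F-test), with batch as a term in genotype comparisons and interactions. The SE beside a fitted log2 difference is the size of that difference divided by the square root of F. It thus restates the test and is not a separate estimate of spread, least of all where a group is near the floor. Benjamini-Hochberg adjustment ran over all genes tested, and a gene was called where the adjusted p lay under 0.05 and the log2 fold change was above 0.58 in size. Single members were also compared by an exact two-sided permutation test on log2(CPM + 1), its p adjusted over all genes tested. A fold against a group at the floor used 3 counts per library, averaged over the group. The code was tested on simulated data. For each comparison the text names up to 5 members (3 in an interaction) with the smallest unadjusted p under 0.05, and up to 3 partners. Other members named with a permutation test were chosen after their values were seen.

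Alternatives were RLE scaling, DESeq2 1.42.0, limma voom 3.58.1, no count filter, no batch term and each batch alone (genotype comparisons), a replicate block, log2(CPM + 0.1) and leaving out each replicate. The libraries came from 4 control and 5 mutant embryos, per the study's methods, and libraries of a group were taken as separate embryos. No source used here ties a replicate number to an embryo, so libraries of different regions were not treated as paired.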

Additional observations from a re-analysis of the deposited data

Results flagged for a closer look

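In 27 of the 130 member-and-group pairs with a mean of at least 1 CPM (20.8%), 1 library lay far from the others of its group by Dixon's ratio at the 95% level (about 1 in 20 groups for normally distributed values). These values are not normal, many being 0, so the share has no chance reference here. The library lay above the rest in 20 and below in 7. Among the secreted semaphorins, the high libraries were those of Sema3a in ventral control 3 (51.8 CPM), Sema3b in ventral control 4 (37.2 CPM), Sema3f in axon mutant 3 (16.9 CPM) and dorsal mutant 2 (28.6 CPM) and Sema3g in axon mutant 5 (15.1 CPM). Among the transmembrane semaphorins, the high libraries were those of Sema4a in axon mutant 1 (25.4 CPM), dorsal control 2 (21.5 CPM) and dorsal mutant 2 (28.9 CPM), Sema4f in axon mutant 1 (114 CPM) and ventral mutant 1 (31.8 CPM), Sema4g in dorsal mutant 4 (21.4 CPM), Sema6c in axon control 2 (4.96 CPM) and dorsal control 2 (5.09 CPM) and Sema6d in ventral control 1 (184 CPM). Among the plexins and neuropilins, the high libraries were those of Nrp1 in axon control 4 (27.1 CPM), Plxna1 in ventral control 2 (68.0 CPM), Plxna4 in ventral control 4 (4.85 CPM) and ventral mutant 4 (9.55 CPM) and Plxnb3 in axon mutant 3 (16.5 CPM) and dorsal control 1 (5.99 CPM). Low libraries were those of Plxna1 in dorsal mutant 3 (2.55 CPM), Plxnb1 in axon mutant 5 (10.5 CPM) and ventral mutant 3 (2.21 CPM), Sema5b in ventral mutant 3 (0.0589 CPM), Sema6a in axon mutant 3 (5.17 CPM) and Sema6d in axon control 1 (0 CPM) and dorsal mutant 1 (0 CPM). No cause was tested.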

How the results depend on the processing

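edgeR called 0 members in each of the 12 comparisons, and also with RLE scaling, the replicate block and each replicate left out (range 0 to 0), and, in the 3 genotype comparisons, with no batch term and in each batch alone. DESeq2 called more, and also more of all genes, as given with each comparison. It called 2, 1 and 4 members for genotype in dorsal, ventral and axon pieces. Between dorsal and ventral, dorsal and axon, and ventral and axon controls it called 2, 4 and 3. In that order it called 0, 3 and 4 in mutants and 1, 6 and 5 in the interactions. With limma voom 1 member was called between dorsal and axon controls, beside 47 of all genes. Between dorsal and axon mutants it called 3, beside 682, and between ventral and axon mutants 2, beside 537. Without the count filter edgeR called 1 member for genotype in dorsal pieces (Sema3a, adjusted p = 5.99e-04), beside 101 of 26264 genes. It called 1 between dorsal and ventral controls (Nrp2, adjusted p = 0.00516), beside 11 of 26571 genes. The cause was not tested. All 638 refitted log2 fold changes of the 43 named results kept their direction, and of 60 recomputed permutation results 0 changed direction. The named results were chosen by their p in the main fit of these same libraries. In several of them a group has no count in any library, so that no refit could turn the sign. The kept directions thus do not measure how firm these results are. Of the 60 permutation results, 16 were no longer under 0.05. The recomputations in each batch alone could not be under 0.05, since batch A allows 4 splits and batch B 10. Their loss was thus fixed by the number of libraries and does not measure dependence on the processing.

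That same-numbered libraries share an embryo is not stated. Within a genotype the correlations of their deviations from the group means ranged from -0.02 to 0.11, and a library correlated best with its own number in 4, 2 and 3 of 4 controls and 3, 2 and 3 of 5 mutants (dorsal with ventral, dorsal with axon, ventral with axon). With the replicate block, 2, 4 and 0 members had an unadjusted p under 0.05 for genotype (5, 4 and 3 without it), 2, 2 and 2 between regions in controls (3, 6 and 4), 4, 3 and 2 in mutants (2, 8 and 7) and 0, 6 and 4 in the interactions (1, 7 and 7), and it changed no call. Across genotypes the shared number marks no shared embryo. Leaving out 1 replicate gave 2 to 6, 0 to 3 and 1 to 2 such members for genotype in dorsal, ventral and axon pieces. A count of 0 to 3 allows no order between low members, and 4 against 5 libraries cannot give a permutation p below 0.00794.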
